A study of Mus musculus with 14 samples.

Results

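Transcripts of 34 genes for coagulation factors, the contact system, plasma anticoagulants, fibrinolysis and the protease-activated receptors were followed in mouse liver during acute liver failure. The genes were taken by symbol, and each of the 34 had a row among the 55357 genes of the count files. After the filter on low counts 31 of them remained among 12915 genes tested, and the other 3, Vkorc1, F2rl1 and F2rl2, are described by their counts.

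Hepatocytes secrete most clotting proteins into plasma as inactive precursors. Tissue factor with factor VII, or the contact proteins factor XII, prekallikrein and kininogen, start a chain of proteases that ends in thrombin, which turns fibrinogen into fibrin. Antithrombin, protein C with protein S, and tissue factor pathway inhibitor restrain this chain, and plasmin dissolves the clot. Because the liver is the main source, loss of clotting activity is a hallmark by which acute liver failure is recognised, while fibrinogen is also a classical acute phase protein whose transcription is driven by interleukin-6.

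Liver RNA came from male C57BL/6 mice that were 5 to 6 weeks old before 1 week of acclimatisation. The 8 model livers were from mice given lipopolysaccharide (LPS, a bacterial outer membrane component) at 10 µg/kg and D-galactosamine (D-GalN, which depletes uridine nucleotides in hepatocytes) at 300 mg/kg into the peritoneum. The 6 control livers were from mice injected with saline, with no route stated, and all livers were taken 24 h after injection. Polyadenylated RNA of whole liver was sequenced, so the model combines a chemical injury and an inflammatory stimulus in a tissue that holds several cell types. The labels name separate samples but do not state separate animals, so the p-values speak only to the spread among the samples at hand. In bulk tissue, fewer cells of a type and less RNA per cell cannot be told apart.

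Total counts in genes were 10329469 to 16639972 per model library and 7914120 to 14463540 per control library. Hepatocyte markers were abundant throughout, with a summed level of 80220 to 94770 CPM (counts scaled to a common library size) in model and 50700 to 78250 CPM in control libraries. Libraries also differed within groups in how strongly long genes were counted. The index used here is the mean log2 deviation of the longest quintile of genes minus that of the shortest, and it was highest in model 7 (0.97) and model 2 (0.71) among model libraries and in control 6 (0.94) and control 3 (0.40) among control libraries. Model 2 was the highest model library for 15 of the 31 tested clotting genes and control 6 the highest control library for 22, whereas model 7 and control 3 were the highest of their groups for 0.

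Among the clotting genes, more were higher than lower in model livers, and most differences were under 2-fold. Of the 31 tested, 13 were higher and 1 was lower in model at an adjusted p under 0.05 (edgeR's quasi-likelihood test with Benjamini-Hochberg adjustment over all genes tested), and 17 were not called. These are 41.9% higher and 3.23% lower, where 26.6% of all genes tested were higher and 21.3% lower, 47.9% in all. Calls of at least 2-fold numbered 5 of the 31, Fga, Fgg, Pros1, F8 and Vwf (16.1%), against 32.9% of all genes tested, and the median absolute log2 fold change was 0.51, against 0.66 over all genes. The CPM ranges of the groups were apart for 3 genes, F2, F9 and Serpinc1, which is 9.68% where 23.2% of all genes had ranges apart. The median log2 fold change was 0.33, against 0.01 over all genes. Without the low-count filter the medians were 0.32 for the same 31 genes and 0.29 over all genes, so the difference between them depends on which genes are counted.

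The counts depend on the scaling between libraries, here the TMM factors of edgeR, which correct for library composition. When libraries were scaled by their totals alone, without TMM factors, the median log2 fold change of all genes was -0.23 and that of the clotting genes 0.06. Then 2 clotting genes were higher, Pros1 and Vwf, and 4 were lower, Klkb1, F11, Serpina10 and Tfpi2. Changes below are on the TMM scale.

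**Figure D1:**
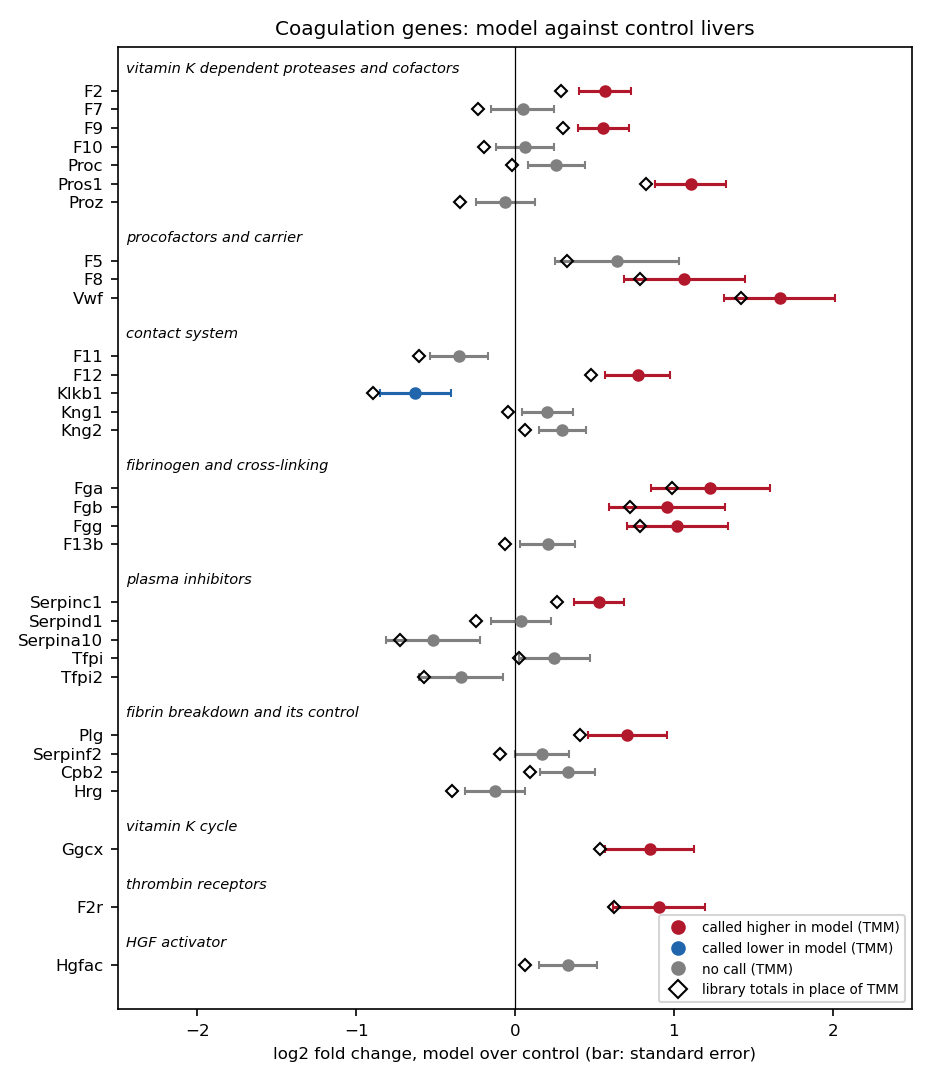
Log2 fold change, model over control, of the 31 tested clotting genes, grouped by role, with circles for TMM scaling (bars are standard errors), red for genes called higher, blue for the gene called lower and grey for no call. Open diamonds give the same fold change with library totals and lie to the left of the circles in every row. Klkb1 is the only blue circle.

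Fibrinogen, the precursor of the clot itself, accounted for the largest part of the clotting transcripts. Its 3 chains are encoded by Fga (ENSMUSG00000028001.17), Fgb (ENSMUSG00000033831.6) and Fgg (ENSMUSG00000033860.14), neighbours on chromosome 3, and all 3 were higher in model. The windows below run from 250 bases before to 50 bases after the annotated start (RefSeq, build GRCm38.p6, written 5′ to 3′ on the gene's strand). They are shown for the 3 chains, which moved together, and for Klkb1, plasma prekallikrein, the 1 clotting gene called lower. Capitals mark CTGGGA, the core of the response element through which interleukin-6 acts on fibrinogen genes, and GTTAAT, part of the site of the hepatocyte factor HNF1, each searched on both strands, so that TCCCAG and ATTAAC are their reverse complements. The Fga window is chr3:83025903-83026202 (plus strand), Fgb chr3:83049814-83050113 (minus strand), Fgg chr3:83007474-83007773 (plus strand) and Klkb1 chr8:45294786-45295085 (minus strand).
Fga: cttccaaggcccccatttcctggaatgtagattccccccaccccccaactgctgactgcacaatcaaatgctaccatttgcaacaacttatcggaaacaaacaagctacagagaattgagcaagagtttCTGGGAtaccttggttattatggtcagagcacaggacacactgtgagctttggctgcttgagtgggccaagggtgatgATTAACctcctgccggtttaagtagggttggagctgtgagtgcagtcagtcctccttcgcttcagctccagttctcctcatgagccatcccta
Fgb: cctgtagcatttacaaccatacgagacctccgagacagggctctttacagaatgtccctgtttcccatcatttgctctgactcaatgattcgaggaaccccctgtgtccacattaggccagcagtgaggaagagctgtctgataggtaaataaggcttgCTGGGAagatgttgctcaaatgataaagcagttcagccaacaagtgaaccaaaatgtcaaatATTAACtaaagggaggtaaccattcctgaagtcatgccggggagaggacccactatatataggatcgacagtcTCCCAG
Fgg: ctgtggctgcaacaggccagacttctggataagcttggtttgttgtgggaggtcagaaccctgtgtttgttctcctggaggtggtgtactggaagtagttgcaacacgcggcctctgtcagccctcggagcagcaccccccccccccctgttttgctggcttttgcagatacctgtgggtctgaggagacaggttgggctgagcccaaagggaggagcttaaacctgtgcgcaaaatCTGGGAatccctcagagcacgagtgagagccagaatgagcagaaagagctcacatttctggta
Klkb1: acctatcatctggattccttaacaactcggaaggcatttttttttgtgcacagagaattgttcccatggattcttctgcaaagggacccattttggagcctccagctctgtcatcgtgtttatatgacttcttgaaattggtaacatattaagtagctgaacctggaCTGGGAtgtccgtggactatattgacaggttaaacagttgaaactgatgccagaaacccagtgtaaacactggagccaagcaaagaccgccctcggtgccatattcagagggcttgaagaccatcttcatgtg

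All 4 windows hold CTGGGA. Counted from the start site, it lies at -121 in Fga, at -91 and 44 in Fgb, at -13 in Fgg and at -83 in Klkb1. GTTAAT lies at -43 in Fga and at -29 in Fgb and is not among the letters of the Fgg and Klkb1 windows. Promoter windows were found for 28 of the 34 genes, 31 windows in all, since some genes have several starts. CTGGGA was in 16 of these 31 windows and in 31.8% of 32544 mouse windows of the same length, and GTTAAT in 8 of 31 and in 7.13%. The letters were chosen with the sequences in view. A match describes the letters only, and the gene called lower holds the same core as the chains called higher.

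Fga had a lowest, median and highest level of 2192, 5134 and 11896 CPM in model, and 1441, 2627 and 3816 CPM in control. Its log2 fold change was 1.23 (SE 0.38, adjusted p = 0.0118), with means of 6095 ± 3429 CPM in model and 2596 ± 1005 CPM in control (SD, n = 8 and 6). Model 7 and model 8 were far above the rest, model 3 and model 4 lay within the control range, and the other 4 model livers were moderately above it. Fgg followed the same order, with 2063, 4770 and 9672 CPM in model and 1544, 2662 and 3693 CPM in control (log2 fold change 1.02, SE 0.32, adjusted p = 0.0128). Fgb had 2291, 4470 and 11759 CPM in model and 1614, 2950 and 4203 CPM in control (0.96, SE 0.36, adjusted p = 0.0377). For Fgb only 4 model livers exceeded the highest control, against 6 for Fga and Fgg. The call of Fgb was the least stable of the 3, since it disappeared when any 1 of model 2, 7 and 8 or control 1, 2, 3 and 4 was left out (adjusted p up to 0.0885).

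Summed over the chains, fibrinogen took 16950 ± 9299 CPM in model and 8068 ± 2756 CPM in control. By liver, the sums were 12980, 18600, 7875, 6547, 13300, 15450, 27550 and 33330 CPM in model 1 to 8, and 5261, 8175, 8304, 4599, 11470 and 10600 CPM in control 1 to 6. Model 3 and model 4 lay within the control range, and model 7 and model 8 were the highest of all 14 livers. The remaining 31 clotting genes together varied much less, at 10170 to 13250 CPM in model and 7453 to 11300 CPM in control. Fibrinogen made up 37.1% to 76.6% of all clotting transcripts in model and 38.2% to 54.8% in control. The ratio of Fga to Fgb counts was 1.10 ± 0.130 in model and 0.894 ± 0.0783 in control, a difference that was not tested. Without model 7 and model 8, the log2 fold changes were 0.84 for Fga (adjusted p = 0.0515) and 0.48 for Fgb (adjusted p = 0.184), both without a call. Fgg was still called higher there (0.69, adjusted p = 0.0457).

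**Figure D2:**
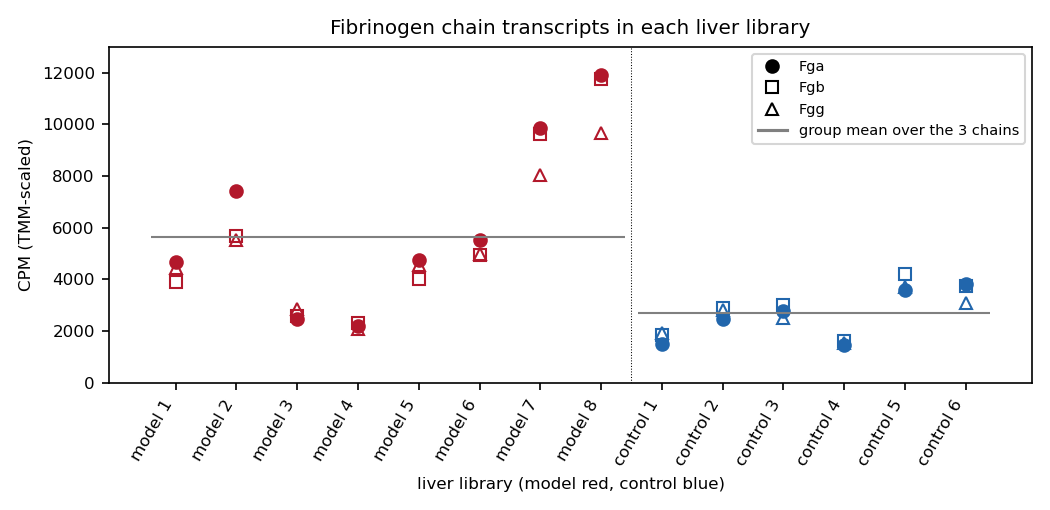
Levels of Fga (circles), Fgb (squares) and Fgg (triangles) in each liver library, in TMM-scaled CPM on a linear axis from 0, model red and control blue, with grey lines at the group means over the 3 chains. Model 7 and model 8 reach 8061 to 11896 CPM, and model 3 and model 4 lie between 2063 and 2844 CPM, within the control range of each chain.

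The serum amyloid transcript Saa1, an acute phase gene outside the clotting set, had its lowest model levels in the same livers as fibrinogen. These were 361 CPM in model 3 and 106 CPM in model 4, against 1421 to 4787 CPM in the other model livers and 38.1 to 516 CPM in control. Among those other livers the order differed from that of fibrinogen, with Saa1 at 3091 CPM in model 5 and 2458 CPM in model 7. F13b, which encodes the carrier subunit of the fibrin cross-linking factor XIII, was at 134 to 231 CPM in model and 120 to 196 CPM in control and was not called (log2 fold change 0.21, adjusted p = 0.34). Every model library except model 2 lay within the control range.

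The vitamin K dependent proteins need carboxylation to bind calcium and membranes. They gave 3 called genes of 7 (42.9%), all higher, and a median log2 fold change of 0.26. Over all genes tested, 47.9% were called and 26.6% were higher. Each role here and below holds 7 genes or fewer, so its count describes these genes and is not a result about the role. F2 (ENSMUSG00000027249.16), prothrombin, had 1495, 1671 and 1999 CPM in model and 982, 1150 and 1379 CPM in control as lowest, median and highest. Every model liver was above every control liver, and the log2 fold change was 0.57 (SE 0.16, adjusted p = 0.00794). F9 (ENSMUSG00000031138.5), the X-linked haemophilia B factor, was likewise apart, at 164, 177 and 225 CPM in model and 84.8, 126 and 151 CPM in control (0.56, SE 0.16, adjusted p = 0.00919). Pros1 (ENSMUSG00000022912.9), protein S, the cofactor of activated protein C, had the largest change of the group. It was at 35.7, 47.3 and 73.2 CPM in model and 15.3, 21.03 and 39.8 CPM in control (1.11, SE 0.23, adjusted p = 0.000622). Only model 5 lay inside the control range, whose upper end was set by control 6, and the call held under each alternative run, library totals included (adjusted p up to 0.0186).

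F7, F10, Proc and Proz were not called. F7, the partner of tissue factor, was at 37.3 to 83.2 CPM in model and 43.7 to 72.1 CPM in control, with model 7 and model 8 the lowest of the model livers. F10, whose product makes thrombin, was at 347 to 631 CPM in model and 425 to 540 CPM in control, and the model range again extended beyond the control range at both ends. Proc, protein C, was at 249 to 470 CPM in model and 259 to 338 CPM in control (log2 fold change 0.26, adjusted p = 0.239), and was called higher without model 7 and model 8 (0.42, adjusted p = 0.0266). Proz, a cofactor of the inhibitor encoded by Serpina10, was at 155 to 302 CPM in model and 190 to 335 CPM in control (-0.06, adjusted p = 0.802). The log2 fold changes of F7 and F10 were 0.05 and 0.06, and both were below 0 with library totals.

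The procofactors and their carrier had 2 called genes of 3. F8 encodes the procofactor missing in haemophilia A and is made in liver mainly by sinusoidal endothelial cells, and Vwf encodes von Willebrand factor, the carrier of factor VIII, made by endothelial cells and megakaryocytes. F8 (ENSMUSG00000031196.14) had 4.31, 9.77 and 24.9 CPM in model and 3.21, 5.24 and 10.2 CPM in control. Model 2, model 3 and model 4 were above every control, model 1 was level with the highest control, and the other 4 lay within the control range. The log2 fold change of F8 was 1.07 (SE 0.38, adjusted p = 0.0283). This gene lost its call when model 2, model 4 or any 1 of control 1, 2, 4 and 5 was left out (adjusted p up to 0.0956). Vwf (ENSMUSG00000001930.18) had 2.84, 4.58 and 9.43 CPM in model and 0.989, 1.38 and 3.06 CPM in control. It had the largest log2 fold change of the 31 genes, 1.67 (SE 0.35, adjusted p = 0.000775), with model 1 and model 5 within the control range, and it was called under every alternative run.

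Cells that make these proteins were followed by marker genes, whose part in F8 and Vwf was not tested. The summed level of 10 sinusoidal endothelial markers was 210.9 to 422.1 CPM in model and 170.4 to 228.4 CPM in control, and these ranges overlap. Lyve1 differed most within the sum, at 119.9 CPM in model and 4.77 CPM in control. Of the 10, 2 were called higher and 3 lower, among them Clec4g, at 24.8 CPM in model and 86.1 CPM in control, and the median log2 fold change was 0.08. The sum of 10 general endothelial markers was 142.1 to 267.0 CPM in model and 86.64 to 131.5 CPM in control, and these ranges are apart. Cdh5, at 81.7 CPM in model and 7.12 CPM in control, and Pecam1, at 35.9 CPM in model and 10.8 CPM in control, carried most of that difference. Of these 10, 4 were higher and Tek was lower, and the median was 0.01. Megakaryocyte and platelet markers summed to 9.106 to 53.91 CPM in model and 2.548 to 3.049 CPM in control. These genes are low, with Gp9 at 208 reads in model and 1 in control, so several passed the filter only through the model libraries and their calls carry no further information. Gp1ba, a platelet receptor gene, had 26 reads in model and 0 in control and was not tested.

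F5, the procofactor of factor X, was at 110, 147 and 398 CPM in model and 50.6, 82.3 and 298 CPM in control and was not called (log2 fold change 0.64, SE 0.39, adjusted p = 0.186). Each model liver was above the control median, but control 6 exceeded all model livers except model 2. Control 6 and model 2 are libraries with a high index of long genes. With an offset for length and GC content, the log2 fold change of F5 was 0.63 (adjusted p = 0.097), still without a call. The part of that index in the values of these 2 libraries was not tested. Without control 6 the log2 fold change of F5 was 1.22 (adjusted p = 0.0065), and without control 3 and control 6 it was 1.46 (adjusted p = 0.0028).

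**Figure D3:**
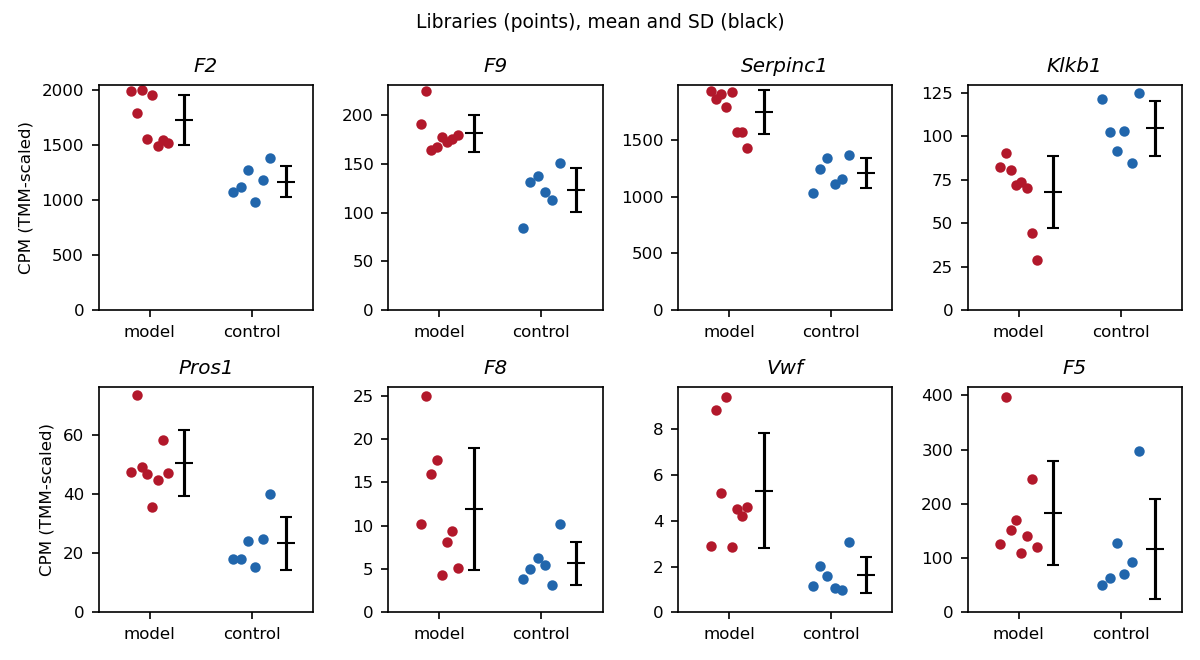
Levels of 8 clotting genes in TMM-scaled CPM, 1 point per library, model left in red and control right in blue, with the group mean and SD in black and each axis starting at 0. The groups are apart for F2, F9 and Serpinc1, Klkb1 is lower in model except for 1 library within the control range, and F5 has 1 high point in each group, at 398 CPM in model and 298 CPM in control.

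In the contact system, 1 gene of 5 was called higher and 1 lower. F12 (ENSMUSG00000021492.16), factor XII, the protease that starts the contact pathway, had 302, 361 and 422 CPM in model and 123, 219 and 315 CPM in control (log2 fold change 0.77, SE 0.20, adjusted p = 0.00438). Every model liver except model 8 was above the highest control. Klkb1 (ENSMUSG00000109764.2), prekallikrein, which factor XII activates and which in turn activates factor XII, had 29.1, 72.9 and 90.7 CPM in model and 84.9, 103 and 125 CPM in control. It was lower in model, with a log2 fold change of -0.63 (SE 0.22, adjusted p = 0.028), and 7 of 8 model livers were below the lowest control. Model 7 and model 8, at 44.2 and 29.1 CPM, were the lowest, and without them the log2 fold change was -0.37 (adjusted p = 0.0507). Leaving out model 7, control 1 or control 6 alone also removed the call (adjusted p up to 0.0674). In the annotation, 43.2% of the exonic length of Klkb1 is shared with the readthrough gene Gm45753 on the same strand, which had 0 to 1 counts per library, and how reads in the shared exons were counted is not known here.

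F11, factor XI, the substrate of factor XII that leads to factor IX, was at 39.5 to 77.9 CPM in model and 55.2 to 93.8 CPM in control (log2 fold change -0.35, adjusted p = 0.124). It was not called, although 4 model livers were below the lowest control. Without model 2 it was called lower (-0.50, adjusted p = 0.0367). The kininogens, carriers of prekallikrein and precursors of bradykinin, were not called. Their genes are paralogues, and reads placed in several positions were left out of the gene counts. How many such reads came from the kininogen genes is not known here. Kng1 was at 1438 to 1868 CPM in model and 1071 to 1795 CPM in control (0.20, adjusted p = 0.309), and Kng2 at 179 to 223 CPM in model and 134 to 190 CPM in control (0.30, adjusted p = 0.103). For Kng2, 7 of 8 model livers were above the highest control by small margins.

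Of the 5 plasma inhibitors of clotting, 1 was called, and the median log2 fold change was 0.04. Serpinc1 (ENSMUSG00000026715.13), antithrombin, the main inhibitor of thrombin and factor Xa, had 1429, 1821 and 1932 CPM in model and 1033, 1198 and 1367 CPM in control. Its groups were apart, and the log2 fold change was 0.53 (SE 0.16, adjusted p = 0.01). Zbtb37 overlaps 34.4% of its exonic length on the opposite strand, and the strand setting of the counting is not known here. Serpind1, heparin cofactor II, was at 270 to 480 CPM in model and 307 to 477 CPM in control, and Tfpi at 5.79 to 11.9 CPM in model and 4.70 to 8.30 CPM in control, neither called (adjusted p = 0.879 and 0.381).

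Serpina10 and Tfpi2 had log2 fold changes below 0 without a call. Serpina10, the protein Z-dependent inhibitor of factor Xa, was at 134, 263 and 529 CPM in model and 209, 447 and 667 CPM in control (log2 fold change -0.51, SE 0.30, adjusted p = 0.16). Control 6, the highest control for 22 clotting genes, was the lowest control here. Serpina10 was called lower without control 3 and control 6 (-0.75, adjusted p = 0.0321). Tfpi2, a matrix-bound relative of Tfpi that inhibits plasmin, was at 56.6 to 153 CPM in model and 73.2 to 209 CPM in control (-0.34, adjusted p = 0.305). The lowest model values of Tfpi2 were those of model 7 and model 8.

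Among genes of fibrin breakdown, 1 of 4 was called. Plg (ENSMUSG00000059481.6), plasminogen, the precursor of plasmin, had 1229, 1309 and 2023 CPM in model and 414, 798 and 1541 CPM in control (log2 fold change 0.71, SE 0.25, adjusted p = 0.026). All 8 model livers were above 5 of the 6 controls, and control 6 lay among the model values. Plg was no longer called once model 2 or any 1 of control 1, 2, 4 and 5 was left out (adjusted p up to 0.0932). Slc22a3 overlaps 11.3% of the exonic length of Plg on the opposite strand. Serpinf2, the plasmin inhibitor alpha-2-antiplasmin, was at 515 to 685 CPM in model and 318 to 623 CPM in control (0.17, adjusted p = 0.428). Cpb2, a carboxypeptidase that protects fibrin from plasmin, was at 299 to 567 CPM in model and 276 to 379 CPM in control (0.33, adjusted p = 0.123), with 6 model livers above all controls and model 3 and model 4 not. Without these 2 libraries Cpb2 was called higher (0.46, adjusted p = 0.0388). Hrg, histidine-rich glycoprotein, which binds plasminogen and heparin, was at 399 to 692 CPM in model and 383 to 742 CPM in control (-0.12, adjusted p = 0.609), the model range lying inside the control range.

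In the vitamin K cycle, Ggcx (ENSMUSG00000053460.9), the carboxylase that modifies the vitamin K dependent factors, had 18.1, 26.9 and 42.7 CPM in model and 8.49, 12.7 and 28.2 CPM in control. It was higher in model (log2 fold change 0.85, SE 0.28, adjusted p = 0.0185), with 4 model livers above every control, and the call was lost without model 2 (adjusted p = 0.0697). Vkorc1, the reductase that recycles vitamin K and the target of warfarin, was barely counted, with 59 reads over the model libraries and 65 over the control libraries, or 0.334 to 1.10 CPM in model and 0.296 to 2.605 CPM in control. In the annotation 47.7% of its exonic length is shared with Gm21974 on the same strand, which had no counts in any library. How reads in the shared exons were counted is not known here, so the level of Vkorc1 is uncertain.

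Of the protease-activated receptors, F2r (ENSMUSG00000048376.7), the main thrombin receptor PAR1, had 16.7, 39.6 and 70.8 CPM in model and 17.1, 18.4 and 33.0 CPM in control (log2 fold change 0.91, SE 0.29, adjusted p = 0.0153). Model 1 to model 5 were above every control and model 8 was below every control. Without model 2 the call was lost (adjusted p = 0.056). F2rl1, the trypsin-activated receptor PAR2, had 93 reads in model and 7 in control, a ratio of rates of 9.90 (exact 95% interval 4.62 to 25.3, counting error only). Per library these were 2 to 23 reads in model and 0 to 4 in control. F2rl2, the receptor PAR3, had 29 reads in model, 1 to 7 per library, and 2 in control, 0 to 1 per library, a ratio of 10.8 with an exact 95% interval of 2.73 to 93.4. Both were under the low-count filter, and in a fit without it their adjusted p was 0.000374 and 0.00446.

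Hgfac, a factor XII relative that thrombin activates and that releases active hepatocyte growth factor, was at 102 to 208 CPM in model and 99.2 to 150 CPM in control (log2 fold change 0.33, adjusted p = 0.142). It was called higher without model 7 and model 8 (0.49, adjusted p = 0.0316). These livers set the lower end of the model range for 9 clotting genes, F7, F10, Proc, Proz, Klkb1, Serpinc1, Serpind1, Tfpi2 and F2r, in each of which both were below the other 6 model libraries. They were both above the other 6 for Kng2, Fga, Fgb, Fgg and Cpb2. Model 3 and model 4 were both below the others for F9, the fibrinogen chains and Cpb2 and both above them for Tfpi and Hgfac. No other pair stood apart as often as model 7 and model 8. Some stood apart about as often as model 3 and model 4. Model 1 and model 3 did so for 5 genes above and 1 below, and model 2 and model 4 likewise. Model 6 and model 8 were both below the others for 6.

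**Figure D4:**
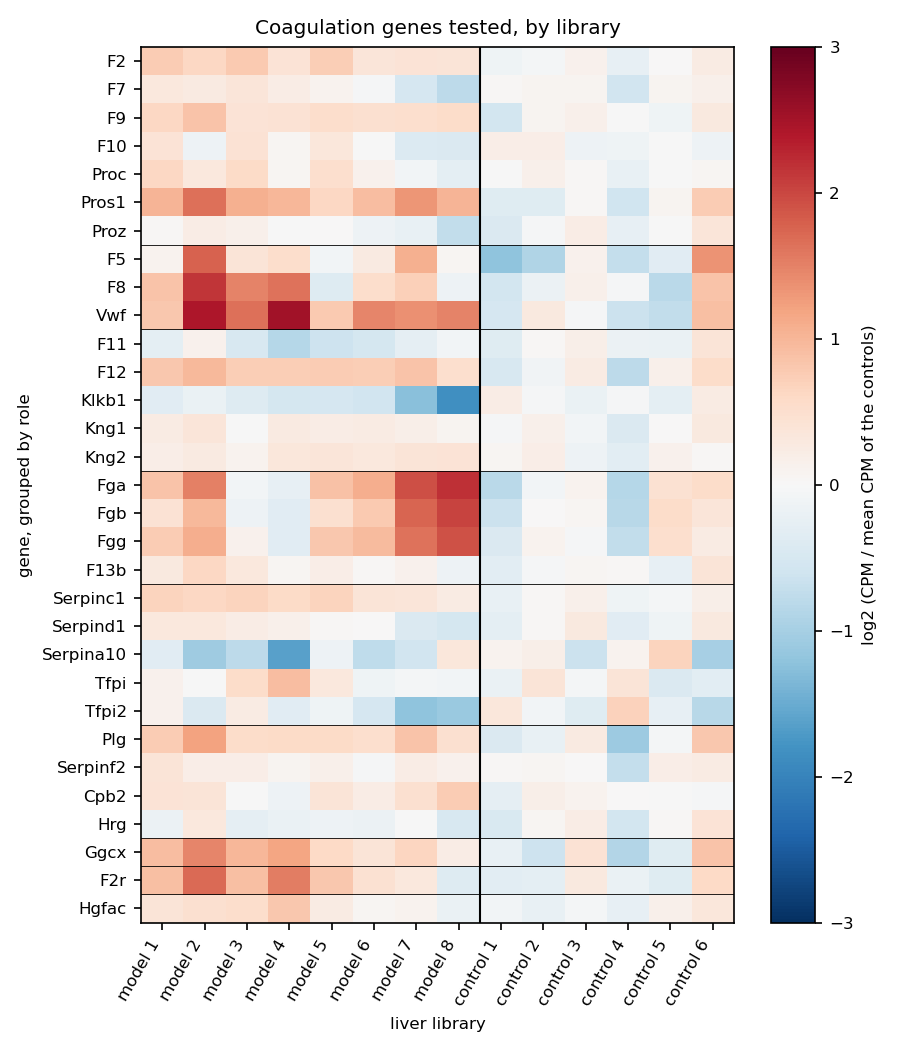
Heat map of the 31 tested clotting genes by library, model left and control right, as log2 of CPM over the mean CPM of the controls (red above, blue below), with genes grouped by role. The fibrinogen rows and the Klkb1 row run in opposite directions in model 7 and model 8, and control 6 is red in most rows.

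Per kilobase of exonic length, the order of levels was nearly the same in both groups. This length merges all annotated exons of a gene and is not that of 1 transcript, so the order depends on the annotation. Serpinc1, with 8546 bases by this count, was at 204 CPM per kb in model and 141 CPM per kb in control. Fgg, Fga and Fgb led, at 2516, 2025 and 1468 CPM per kb in model and 1239, 863 and 756 CPM per kb in control, followed by Kng1 at 516 CPM per kb in model and 448 CPM per kb in control. Plg came next in model at 387 CPM per kb, against 237 CPM per kb in control, close to F2 at 377 CPM per kb in model and 254 CPM per kb in control. Plg and F2 differed from each other by less than the spread between livers of either group. F8 and Vwf, at 1.21 and 0.332 CPM per kb in model and 0.572 and 0.103 CPM per kb in control, lay near the bottom, with F2rl1 and F2rl2 below them. The clotting genes together took 1.51% to 4.64% of all gene counts in model and 1.15% to 2.77% in control.

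Genes for cell surface regulators of clotting were followed as a separate list, chosen with earlier results of these data known. Over all genes tested, 26.6% were higher and 21.3% lower. Of 11 genes for tissue factor, thrombomodulin and cell surface regulators, 8 were higher and 0 lower, with a median log2 fold change of 1.70. They included Procr, the endothelial protein C receptor, at 62.4 ± 9.79 CPM in model and 0.621 ± 0.344 CPM in control (log2 fold change 6.57), and Thbd, thrombomodulin, which turns thrombin toward protein C, at 57.2 ± 14.1 CPM in model and 1.79 ± 0.600 CPM in control (4.97). Among genes that act on plasminogen or bind its activators, Thbs1, thrombospondin-1, was at 199.7 ± 83.5 CPM in model and 0.254 ± 0.283 CPM in control (9.34), and Plaur, the urokinase receptor (6.55), and Plat, tissue plasminogen activator (2.49), were also higher. Several of these genes were tested only because of their model level. Their calls, and the median of 1.70 that includes some of them, therefore carry no further information. Procr, Thbs1, Plaur and Plat, for example, reached at most 0.930, 0.766, 1.32 and 0.530 CPM in control. Proc and Plg themselves had log2 fold changes of 0.26, without a call, and 0.71.

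For supply and processing of vitamin K dependent factors, 2 of 11 genes were higher and 2 lower. Pcsk5, a proprotein convertase (log2 fold change 1.41), and Asph, a hydroxylase of factor domains (0.67), were higher, while Vkorc1l1, the paralogue of Vkorc1 (-0.84), and Aifm2, a vitamin K reductase (-0.77), were lower. With library totals the split was 1 higher and 4 lower. Of 8 receptors that clear plasma glycoproteins and apoptotic cells, the scavenger receptor gene Stab1 (1.80) and Timd4, a phosphatidylserine receptor of Kupffer cells (1.75), were higher and 0 were lower (2 and 1 with library totals). Among 9 tested platelet genes, 8 were higher, some of them tested only because of their model level. Those with the largest fold changes at a mean of 5 CPM or more were the platelet chemokine Ppbp (4.47) and the fibrinogen receptor subunit Itgb3 (4.05), and the podoplanin receptor Clec1b was lower (-1.14).

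The other plasma proteins that hepatocytes secrete stood close to the clotting genes. Of 24 tested, 9 were higher and 0 lower, with a median log2 fold change of 0.42, against 0.33 for the clotting genes. Itih4 (1.37) and Itih1 (1.18), heavy chains of inter-alpha inhibitors, led. With library totals 4 were higher and 2 lower, and without control 3 and control 6 these counts were 16 and 1. Hepatocyte transcription factors went the other way, with 3 of 20 higher and 9 lower and a median of -0.88, or 3 higher, 6 lower and a median of -0.33 without control 3 and control 6. Cebpd (3.45) and Cebpb (2.70), factors of the acute phase, and Nfil3 (2.62) were higher, and Dbp, a factor of daily rhythm (-2.84), and Nr1h4, the bile acid receptor (-2.18), were lower. On the interleukin-6 axis, 6 of 8 genes were higher, with Il6 at 15.3 ± 6.21 CPM in model and 0.0911 ± 0.141 CPM in control (7.58) and Socs3 at 185 ± 33.6 CPM in model and 6.47 ± 6.53 CPM in control (4.83). Il6 did not exceed 0.289 CPM in any control library and was tested only because of its model level.

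Cell markers in the same livers moved as follows, and their part in the clotting results was not tested. Hepatocyte markers had 4 of 10 genes higher and 0 lower (median log2 fold change 0.60), where 26.6% of all genes tested were higher and 21.3% lower. Their summed levels did not overlap between groups on the TMM scale. With library totals 2 hepatocyte markers were higher and 0 lower, with a median of 0.32, and the sums were not compared on that scale. Neutrophil markers summed to 1212 to 2801 CPM in model and 4.385 to 16.69 CPM in control, and the defining marker Ly6g had 303 reads in model and 0 in control. S100a9 and S100a8, at 1069 and 426 CPM in model and 4.95 and 1.96 CPM in control, carried most of the sum. Mpo and Elane were too low to be tested. Mpo had 27 reads in model and 3 in control, while Elane went the other way, with 13 in model and 23 in control. Kupffer cell markers had 3 higher and 3 lower of 8, monocyte markers 4 higher of 6 tested, with S100a4 nearly absent from both groups (2 reads in model and 0 in control), stellate cell markers 5 higher and 2 lower of 8, and cholangiocyte markers 5 higher of 5 tested. Some monocyte and cholangiocyte markers, such as Vcan and Krt7 (at most 0.385 and 0.868 CPM in control), passed the filter only through the model libraries.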

How the data were processed

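The deposited files, 1 for each library, hold raw gene counts that the authors made from reads aligned with HISAT2 to GRCm39, per the submitters' processing notes. Versions, the counter, its strand setting and the annotation used: not given in the sources used here. Summary lines naming no gene held 27.35% to 45.56% of entries, of which reads placed in several positions were 13.39% to 18.56% of all entries, and were left out.

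Genes passing filterByExpr (12915 of 55357) entered the test of edgeR 4.0.16 (R 4.3.3): TMM factors, robust quasi-likelihood fit, group as the only term, Benjamini-Hochberg adjustment over all tested genes, calls at an adjusted p under 0.05. CPM used TMM factors. SE is the log2 fold change over the root of F. Alternatives used DESeq2 1.42.0, limma 3.58.1 (voom) and an offset for length and GC content (mgcv 1.9.3). The fits were tested on simulated counts. Lengths and overlaps came from a GENCODE annotation of GRCm38, matched by gene identifier. The clotting genes and all lists were chosen with earlier results of these data known. Every clotting gene is named. From each other list, up to 2 called genes per direction with the largest fold change are named, if either group averaged 5 CPM or more, and any gene behind a count of 5 or fewer. Of 43 pairs of libraries within a group, none agreed within sampling noise (smallest chi-square per degree of freedom 23.3). Saa1, Plaur, Plat and the cell markers named singly were chosen after their values were seen. An item of a pathway list, and with it that list's count, is not reported here.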

Additional observations from a re-analysis of the deposited data

Results flagged for a closer look

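Single libraries stood away from their own group for 8 of 68 combinations of clotting gene and group, by the gap to the nearest library as a share of the group's range (limits 0.526 for 8 and 0.625 for 6 libraries). For normally distributed values chance gives about 1 in 20. The rule was applied to CPM without logarithms and also to genes with few reads, so the rate for these data is not known. Values of 1 library are not independent across genes. Model 2 was highest for F9 (224.6 CPM, next 190.7), F5 (397.5 CPM, next 245.7) and Plg (2023 CPM, next 1582). Control 6 was highest for F5 (297.5 CPM, next 127.5). Control 4 was lowest for F7 (43.7 CPM, next 66.54) and Serpinf2 (318.0 CPM, next 527.8), and highest for 2 genes under the low-count filter, Vkorc1 (2.605 CPM, next 1.156) and F2rl1 (0.3859 CPM, next 0.1061).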

How the results depend on the processing

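The count of clotting genes called higher was 13 and that of genes called lower 1. With DESeq2 size factors, DESeq2, limma-voom, no low-count filter, the length and GC offset, or without model 3 and model 4, the higher count was 13, 13, 11, 15, 14 and 13 and the lower count stayed at 1. The 15 without the filter include F2rl1 and F2rl2, which are not among the 31, and the 31 kept their calls there. The counts were 13 and 0 without model 7 and model 8. When control 3 and control 6, chosen after seeing the data, were left out, 2 protease-activated receptor genes were tested instead of 1, and both were higher. That run gave 15 higher and 1 lower, Serpina10 and not Klkb1. With library totals it was 2 and 4, and the log2 fold changes of uncalled genes turned to -0.2339 (F7), -0.1968 (F10), -0.01596 (Proc), -0.04556 (Kng1), -0.06339 (F13b), -0.2461 (Serpind1) and -0.09584 (Serpinf2). Leaving out 1 library at a time, the counts ranged over 8 to 14 higher (8 without model 2) and 0 to 2 lower (2 without model 2, 0 without model 7, control 1 or control 6), and F7 ranged from -0.05457 to 0.1418, Serpind1 from -0.07292 to 0.1467, Proz from -0.175 to 0.06557 and Hrg from -0.2649 to 0.01609. Other turns of sign were F7 (-0.03795) and Serpind1 (-0.003229) without model 3 and model 4, Proz (0.09539) without model 7 and model 8, and Proz (0.167) and Hrg (0.127) without control 3 and control 6. No called gene changed sign under any alternative run. Library numbers are shared between groups, and the labels do not say whether they mark pairs. Correlations of deviations between libraries of the same number were -0.342 to 0.363, which does not settle this. With the replicate block 11 genes were higher and 0 lower, and Proz was at 0.07124. Numbers 7 and 8 exist only in model. Each is therefore alone in its block, and model 7 and model 8 do not inform the group difference in the blocked fits. With the block and the length and GC offset 11 were higher and 1 lower, Serpina10 (-0.6468, adjusted p = 0.0458) in place of Klkb1 (-0.369, adjusted p = 0.0815), and Proz was at 0.05616 and Tfpi2 at 0.01893. The blocked fits are thus close in design to leaving model 7 and model 8 out, and other causes of these shifts were not tested.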
